A study of Mus musculus with 2 samples.

Results

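Low-RNA neutrophils were 85 of the 9747 cell barcodes of mouse tumours profiled by droplet single-cell RNA sequencing, a share of 0.872% (exact binomial 95% interval 0.697% to 1.08%). A barcode belonged to them when it held at least 5 UMIs (unique molecular identifiers, 1 per captured transcript) of S100a8 and S100a9 together and fewer than 1500 genes. It also had to hold at most 1 UMI of the keratin genes Krt8 and Krt18, at most 1 UMI of the complement genes C1qa, C1qb and C1qc, and 0 UMIs of the mast cell protease genes Cpa3 and Mcpt2. No minimum number of genes was asked for, since a usual minimum of 500 genes would have kept 14 of the 85. The tumours came from 3 samples given an inhibitor of ACSS2 (ACSS2i in the labels), the enzyme that makes acetyl-CoA from acetate, and 3 samples given vehicle, and the series title places the study in triple negative breast cancer. Live cells of all 6 samples were stained with antibody tags, combined and loaded on 1 lane, so that the expression library is 1 pool. The strain is written in the labels as "NGS mouse", and the design text speaks of Bmal1 status without assigning it to any sample. No label ties a tag to an arm, so that nothing here compares inhibitor with vehicle. No age, sex, cell line, dose or duration is given in the sources used here.

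Neutrophils are short-lived phagocytes that leave the bone marrow nearly finished: they carry premade granules, little RNA and few mitochondria, and rely largely on glycolysis. S100a8 and S100a9 encode the pair of calcium-binding proteins that fill their cytosol. They follow CXC chemokines through the receptor CXCR2, and G-CSF, acting on the receptor encoded by Csf3r, governs their production and survival. In tumours they are known as a source of cytokines and chemokines that draw in or modulate other leukocytes.

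The keratin limit and the gene limit did most of the selection. Of 156 barcodes with at least 5 UMIs of S100a8 and S100a9, 71 failed another condition, and 64 of these failed both the keratin and the gene limit. Those excluded for keratin UMIs had a median of 26301 UMIs in all and 9 UMIs of the S100 pair. The gene limit alone excluded 3 barcodes, which held 9535 to 20794 UMIs, at least 2868 genes and 6 to 75 UMIs of the pair. The members had a median of 75 UMIs of the pair and at most 420. Just inside the threshold, 1 member had exactly 5 and the next had 6, and just outside, 3 barcodes that met every other condition had 3 or 4 and 15 had 1 or 2. The low RNA content is therefore partly set by the rule, and the table itself starts at 500 gene UMIs, with 8 members under 600, so that barcodes with less RNA were not analysed here.

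The reference was 517 macrophages, barcodes with at least 3 UMIs of the C1q genes and at least 500 genes. They held 5420878 UMIs in all, against 78462 in the 85 neutrophils. Of the macrophages, 118 also carried more than 1 keratin UMI or at least 5 UMIs of the S100 pair, and the remaining 399, called keratin-low macrophages below, held only 1829983 of the 5420878 UMIs. Most macrophage UMIs therefore came from barcodes with keratin or S100 UMIs, and levels in the keratin-low macrophages are given beside the results that this touches. Barcodes with several antibody tags were 91 of the 517 macrophages and held 1912945 of their UMIs. The single tag D1 held 206 macrophages with 1935406 UMIs, but only 8 neutrophils. The pooled classes therefore differ in their mix of samples. For scale, 842 barcodes with at least 2 UMIs of Cd3d, Cd3e and Cd3g (T cells) and 5334 with at least 5 keratin UMIs and 1500 genes (tumour cells) were measured in the same way. Levels are UMIs summed over a class and scaled to a total of 1000000 (CPM). These are 3' tags, counted per transcript and not divided by length. With 1 pool there was no test over samples: intervals are exact 95% Poisson or binomial intervals, cover counting error only, and treat neither cells nor tags as replicates of a condition.

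The neutrophils had less RNA and less complex RNA than the other classes. The median barcode held 788 UMIs and 381 genes in neutrophils, against 4935 UMIs and 1804 genes in macrophages, 1542 and 768.5 in T cells, and 26749.5 and 4669 in tumour cells. After every barcode was thinned to 500 UMIs, the median was 271 genes in neutrophils, 345 in macrophages, 334.5 in T cells and 349 in tumour cells. Mitochondrial transcripts made up a median of 0.305% of UMIs in neutrophils and 3.33% in macrophages, 2.97% in T cells and 3.72% in tumour cells. Transcripts of ribosomal proteins made up 4.82% in neutrophils and 16.8% in macrophages. Both shares stayed apart in the 166 macrophages with fewer than 1500 genes, whose medians were 2.94% mitochondrial and 16.9% ribosomal. The antibody tag, which is read from the cell surface and not from RNA, showed no such deficit, with a median of 998 tag UMIs in neutrophils and 886 in macrophages. T cells had a median of 1105 tag UMIs and tumour cells 220, so that tag counts did not follow RNA content over the classes.

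**Figure D1:**
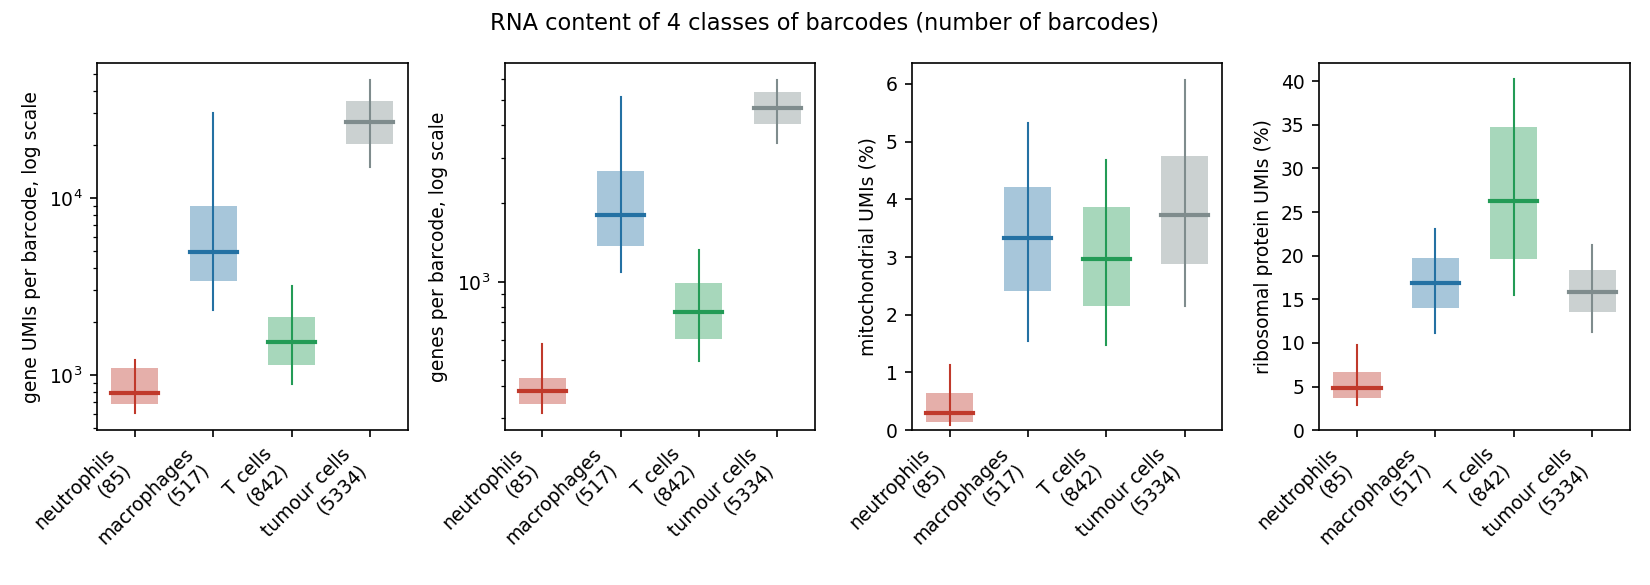
UMIs and genes per barcode (log scales), mitochondrial share and ribosomal protein share (percent) of 85 neutrophils, 517 macrophages, 842 T cells and 5334 tumour cells. Thick lines are medians, boxes the middle 50% and thin lines the 10th to 90th percentile of barcodes. Neutrophils lie lowest on all 4 scales, with medians of 788 UMIs and 0.305% mitochondrial UMIs, and the gene limit of the rule bounds the first 2 panels.

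A few genes held much of that RNA. The 10 most abundant transcripts made up 28.3% of neutrophil UMIs and 6.20% of macrophage UMIs: S100a9, Fth1 (ferritin heavy chain), S100a8, Cxcl2, the nuclear RNA Malat1, Il1b, Tmsb4x (an actin-binding thymosin), Srgn (serglycin, the proteoglycan that packs granules), the histone gene H3f3b and G0s2. The S100 pair, which the rule selected for, was 10.6% of neutrophil UMIs and 0.00500% of macrophage UMIs. Srgn, which the rule did not use, was at 11369 CPM in neutrophils and 794 CPM in macrophages, a ratio of 14.3 (13.3 to 15.4), and at 1892 CPM in keratin-low macrophages.

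All of the 4 neutrophil markers that the rule left out were far higher in neutrophils than in macrophages, and the label was kept. G0s2, an inhibitor of lipolysis abundant in neutrophils, was at 7736 CPM in neutrophils, against 1.11 CPM in macrophages (607 UMIs in neutrophils and 6 in macrophages), a ratio of 6989.5 (3193 to 19121). Retnlg, a resistin-like secreted protein of mouse neutrophils, was at 3518 CPM (276 UMIs) in neutrophils and had 0 UMIs in macrophages, at least 6356-fold higher with macrophages set at 3 UMIs over the class. The G-CSF receptor Csf3r was at 523 CPM in neutrophils, against 3.32 CPM in macrophages, 157 times as high (88.4 to 291). The chemokine receptor Cxcr2 was at 484 CPM (38 UMIs) in neutrophils and 0.184 CPM (1 UMI) in macrophages, a ratio of 2625 with an interval of 444 to 106392. At the level of barcodes, 74 of the 85 held a UMI of at least 1 of the 4 genes and 11 held none. Thinned to 500 UMIs, G0s2 was seen in 69.4% of neutrophils (71.8% unthinned, median depth 788 UMIs) and 0.119% of T cells (0.475% unthinned, median depth 1542). Retnlg was seen in 42.4% of thinned neutrophils (45.9% unthinned) and in 0 T cells at either depth.

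Promoters of the 6 markers were searched for the C/EBP core, the letters TTGCNNAA or TTNNGCAA on either strand, because C/EBP factors drive the granulocyte programme and Cebpb was among the abundant transcripts. The window was 250 bases before to 50 after the RefSeq start (GRCm38.p6). It held the letters in 2 of the 6, S100a9 and Retnlg, against 3547 of 32851 promoters (10.8%) of all genes, and in none of S100a8, G0s2, Csf3r and Cxcr2. The match is a description of the letters only. The promoters of S100a9 (chr3:90695672-90695971, minus strand) and Retnlg (chr16:48872358-48872657, plus strand) are shown with the match in capitals, and that of S100a8 (chr3:90668821-90669120, plus strand), which lies near S100a9 and varied with it across barcodes, is shown for comparison with no match:
S100a9: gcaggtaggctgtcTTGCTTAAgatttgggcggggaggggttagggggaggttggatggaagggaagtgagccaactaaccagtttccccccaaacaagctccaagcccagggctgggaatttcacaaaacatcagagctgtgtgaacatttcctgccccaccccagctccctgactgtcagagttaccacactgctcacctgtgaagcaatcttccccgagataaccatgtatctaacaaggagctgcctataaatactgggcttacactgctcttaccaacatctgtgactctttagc
Retnlg: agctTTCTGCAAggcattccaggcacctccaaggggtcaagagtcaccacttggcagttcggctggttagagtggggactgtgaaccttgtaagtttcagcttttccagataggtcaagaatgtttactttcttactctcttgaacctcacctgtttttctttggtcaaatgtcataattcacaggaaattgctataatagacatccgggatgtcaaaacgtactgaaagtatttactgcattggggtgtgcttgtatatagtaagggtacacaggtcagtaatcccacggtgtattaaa
S100a8: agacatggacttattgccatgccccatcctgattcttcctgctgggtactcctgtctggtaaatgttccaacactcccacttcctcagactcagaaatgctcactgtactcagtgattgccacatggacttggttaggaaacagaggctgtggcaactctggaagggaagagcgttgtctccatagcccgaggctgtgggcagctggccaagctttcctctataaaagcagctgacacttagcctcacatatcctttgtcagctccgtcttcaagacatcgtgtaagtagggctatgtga
All 3 read 5' to 3' on the strand of the gene.

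Across the transcriptome, 2607 genes had a mean of at least 50 CPM over the neutrophil and macrophage sums. Of these, 282 (10.8%) were at least 4-fold higher in neutrophils and 339 (13%) at least 4-fold lower, and the median gene was at 0.736 of its macrophage level (log2 ratio -0.44). Against the keratin-low macrophages the counts were 192 higher and 250 lower. The shallow class limits the lower side, since 527 of the 2607 genes rested on at most 3 neutrophil UMIs. The filter limits the higher side, since 397 of the 2607 were under 50 CPM in macrophages and entered only through their neutrophil level. The lower the macrophage level, the larger the ratio such a gene needed to be compared. Counts of higher genes in the lists below include such genes, so they are descriptions and not tests. Among genes outside the rule with at least 20 UMIs in the higher class, the 15 highest ratios included all 4 markers. They also held Asprv1, an aspartic protease (43 UMIs in neutrophils and 1 in macrophages), Slc2a3, the glucose transporter GLUT3 (25 UMIs in neutrophils and 2 in macrophages), and Hdc, the enzyme that makes histamine (120 UMIs in neutrophils and 12 in macrophages). Wfdc21, a small secreted protein, was at 637 CPM in neutrophils, against 1.66 CPM in macrophages, Lrg1, a glycoprotein of neutrophil granules, at 446 CPM in neutrophils and 1.29 CPM in macrophages, Rhov, a small GTPase, at 382 CPM in neutrophils and 1.66 CPM in macrophages, and Pglyrp1, a peptidoglycan-binding granule protein, at 369.6 CPM in neutrophils and 2.21 CPM in macrophages. The rest were Cxcl3, Ankrd33b (637 CPM in neutrophils and 3.87 CPM in macrophages) and the stefin genes Gm5483 and Stfa2l1, cysteine protease inhibitors. Gm5483 had 152 UMIs in 25 of the neutrophils and 1 UMI in macrophages, and Stfa2l1 had 41 UMIs in neutrophils and 0 in macrophages; reads of this near-identical family may be split between copies, so that the level of each is uncertain.

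Primary granule genes were nearly absent, and genes of secondary and tertiary granules were mixed. The primary granule genes Mpo, Elane, Prtn3 and Ctsg, and Ms4a3, listed with them but not a granule gene, are transcribed in marrow precursors. These 5 had 1 UMI in all 85 neutrophils, of Prtn3. The 4 others were at 0, which allows up to 38.2 CPM each (3 UMIs). Of 10 genes of secondary and tertiary granules, 5 had enough UMIs to compare and 4 of these were higher, against 10.8% of all genes compared. Lcn2, the iron-withholding lipocalin, was at 523 CPM in neutrophils, against 57.7 CPM in macrophages, a ratio of 9.05 (6.37 to 12.6), and Hp, haptoglobin, at 459 CPM in neutrophils and 42.2 CPM in macrophages. Mmp9, a gelatinase of tertiary granules, was at 446 CPM in neutrophils and 3.50 CPM in macrophages (127, 70.8 to 236), and the collagenase Mmp8 at 127 CPM in neutrophils and 2.40 CPM in macrophages. With such macrophage levels Mmp9 and Mmp8 could be compared only at ratios above 4, so the filter set both calls. Anxa1, the anti-inflammatory annexin, was the exception at 293 CPM in neutrophils and 875 CPM in macrophages, though keratin-low macrophages were at 290.2 CPM and tumour cells at 1346 CPM. The early secondary granule genes Ltf, Camp and Ngp, lactoferrin, cathelicidin and neutrophilic granule protein, had 0, 0 and 1 UMI. The median ratio of the 5 was 10.9 and lay between 6.59 and 106 over the 25 settings tried.

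Of the lists examined, surface receptors had the largest number of members past the 4-fold limit, though shorter lists such as the cytokines (9 of 10 compared) had a larger share. All 22 were compared and 17 were higher, where 10.8% of all genes were, and none was lower. The markers Cxcr2 and Csf3r, already given above, are counted among the 22 and the 17. The median ratio was 8.20, against 0.736 over all genes, and lay between 2.77 and 9.41 over the settings tried. The C-type lectin receptors Clec4d and Clec4e, which sense fungal and mycobacterial glycolipids and dying cells, were at 1364 and 1300.0 CPM in neutrophils and 87.3 and 52.4 CPM in macrophages. Ccr1, a receptor for CCL3 and related chemokines, was at 1224 CPM in neutrophils, against 116 CPM in macrophages, a ratio of 10.5 (8.42 to 13.1). The decoy receptor for interleukin-1, Il1r2, was at 981 CPM in neutrophils and 31.2 CPM in macrophages (31.5, 23.7 to 41.5), and Trem1, an activating receptor that amplifies inflammation, at 905 CPM in neutrophils and 48.3 CPM in macrophages. Receptors for formylated peptides were rarer but higher as well, with Fpr1 at 166 CPM in neutrophils and 2.40 CPM in macrophages and Fpr2 at 191 CPM in neutrophils and 5.90 CPM in macrophages. Cd14, the lipopolysaccharide co-receptor, had the highest level of the list, 2842 CPM in neutrophils and 550.3 CPM in macrophages, but 1306 CPM in keratin-low macrophages, against which the ratio was below 4-fold. The same was so of Cxcr4, the marrow-retention receptor, at 395 CPM in neutrophils, 95.7 in macrophages and 241 in keratin-low macrophages. The integrin Itgam (242 CPM in neutrophils and 159.6 CPM in macrophages), Tlr2 (166 CPM in neutrophils and 157 CPM in macrophages), Csf2rb (217 CPM in neutrophils and 84.9 CPM in macrophages), and the Fc receptors Fcgr3 (612 CPM in neutrophils and 238 CPM in macrophages) and Fcgr4 (115 CPM in neutrophils and 48.9 CPM in macrophages) were within 4-fold. Of the 17 higher calls, 10 held in all 25 settings tried, and those of Cd14, Cxcr4, C5ar1, Ltb4r1, Pirb, Ptafr and Selplg did not.

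Cytokine and chemokine genes took up a large share of the neutrophil transcripts. The list of 12 genes also held those of the enzymes Ptgs2 and Nos2. The 12 summed to 72251.5 CPM in neutrophils, 3701 CPM in macrophages and 7870.0 CPM in keratin-low macrophages. Of the 10 that could be compared, 9 were at least 4-fold higher, where 10.8% of all genes were, and none lower, with a median ratio of 13.1 that lay between 6.32 and 15.6 over the settings tried. Cxcl2, itself a ligand of CXCR2, was the most abundant at 36463.5 CPM (78 of 85 barcodes) in neutrophils and 1192 CPM in macrophages, a ratio of 30.6 (29.3 to 32.0). Il1b, the precursor of interleukin-1 beta, was at 19207 CPM (74 barcodes) in neutrophils and 1165 CPM in macrophages (16.5, 15.6 to 17.4). Keratin-low macrophages were at 2771 CPM of Cxcl2 and 2794 CPM of Il1b, and T cells were at 118 CPM of Cxcl2 and 69.1 CPM of Il1b. Free RNA was not measured apart from cells, and its part in these levels was not tested.

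By tag, Cxcl2 was at 26259, 45643, 36537 and 60489 CPM in neutrophils of tags U2, U3, U4 and D0, against 1882, 1697, 1979 and 1729 CPM in macrophages of the same tags. Il1b was at 15849.8, 23262, 14637 and 31966 CPM in neutrophils and 1668, 879, 2379 and 2266 CPM in macrophages of these tags. For both genes every neutrophil value lay above every macrophage value, and D0 was the highest neutrophil sample. Here and below, the tags split the barcodes that gave the pooled ratios, so a lack of overlap largely restates these. How many of all genes separate in this way was not counted. Cxcl3, a further CXCR2 ligand, was at 2982 CPM in neutrophils and 4.06 CPM in macrophages (735, 474 to 1195), and came from only 28 barcodes, 1 of which held 26.1% of its UMIs. Ccl3 and Ccl4, chemokines that draw in leukocytes, were at 2931 and 4690.2 CPM in neutrophils and 58.1 and 129 CPM in macrophages. Osm, oncostatin M, a cytokine of the interleukin-6 family, was at 1236 CPM in neutrophils, against 119.7 CPM in macrophages, and Il1rn, the antagonist of the interleukin-1 receptor, at 1032 CPM in neutrophils and 98.9 CPM in macrophages. In keratin-low macrophages Osm was at 285 CPM and Il1rn at 248 CPM. Ccl6, a CCR1 ligand, was at 1453 CPM in neutrophils, against 328 CPM in macrophages and 839.9 CPM in keratin-low macrophages, within 4-fold of the keratin-low macrophages. Osm was within 4-fold of macrophages with fewer than 1500 genes, at 345 CPM. Ptgs2, the inducible cyclooxygenase, was within 4-fold at 1937 CPM in neutrophils and 519 CPM in macrophages. Tnf and Nos2 had 2 UMIs each in neutrophils. Of the 9 higher calls, 6 held in all 25 settings tried, and Ccl6, Osm and Il1a, the gene of interleukin-1 alpha, did not.

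The tumour cells had a different ligand of the same receptor. Cxcl1 was at 242 CPM in neutrophils, 1693 CPM in macrophages and 2355 CPM in tumour cells, while keratin-low macrophages were at 445 CPM. Cxcl2 and Cxcl3 in tumour cells were at 57.9 and 0.110 CPM. Cxcl5 and the colony stimulating factors Csf2 and Csf3 had 0 UMIs in neutrophils and 5.30, 8.72 and 3.09 CPM in tumour cells.

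**Figure D2:**
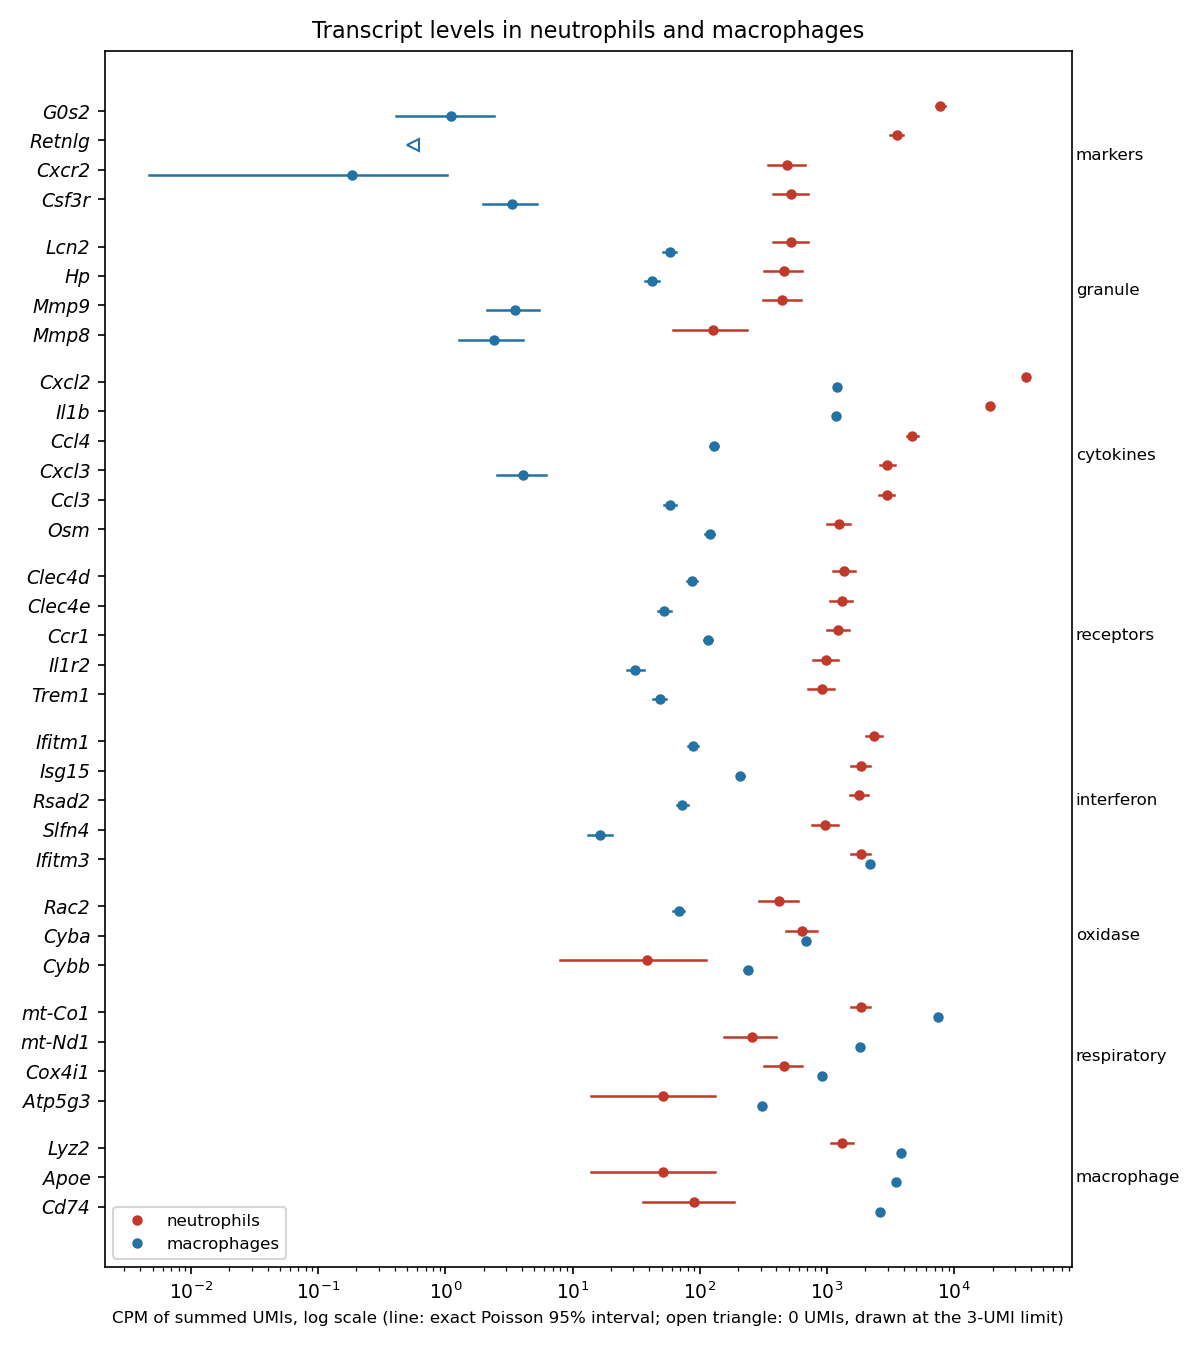
CPM of summed UMIs (log scale) of selected genes, grouped by role, in 85 neutrophils (upper point of each pair) and 517 macrophages (lower point); lines are exact Poisson 95% intervals and open triangles mark 0 UMIs, drawn at the level of 3 UMIs. Marker, granule and cytokine genes lie to the right in neutrophils, such as Cxcl2 at 36463.5 against 1192 CPM, and respiratory and macrophage genes to the left, such as mt-Co1 at 1835 against 7484 CPM.

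Genes described in tumour neutrophils gave a mixed picture. Of 18, 17 could be compared, 7 were higher, where 10.8% of all genes were, and 10 were within 4-fold, and the list was chosen with earlier results of these data known. Hilpda, an inhibitor of lipolysis induced by low oxygen, was at 2192 CPM in neutrophils, against 153 CPM in macrophages, a ratio of 14.3 (12 to 16.9), but 1 barcode held 37.2% of its UMIs. Wfdc17, a small secreted protein of activated myeloid cells, was at 2154 CPM in neutrophils and 185 CPM in macrophages, and Hcar2, the receptor for nicotinic acid and hydroxybutyrate, at 1109 CPM in neutrophils and 9.96 CPM in macrophages. Cd274, which encodes the checkpoint ligand PD-L1, was at 497 CPM (39 UMIs in 24 barcodes) in neutrophils and 28.8 CPM in macrophages (17.3, 11.8 to 24.7), and at 65.0 CPM in keratin-low macrophages. The pyrimidine salvage enzyme Upp1, the arginase gene Arg2 and the decoy TRAIL receptor gene Tnfrsf23 were also higher, at 472, 229 and 217 CPM in neutrophils and 35.6, 5.35 and 30.8 CPM in macrophages. Vegfa, the angiogenic growth factor, was at 268 CPM in neutrophils and 406 CPM in macrophages, the cathepsin gene Ctsb at 816 CPM in neutrophils and 870.0 CPM in macrophages, and Siglecf, a lectin of some tumour neutrophils, had 1 UMI. Fth1 was at 50024 CPM in neutrophils and 24991 CPM in macrophages, a ratio of 2.0 (1.94 to 2.07).

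Several interferon-induced genes were high. All 14 were compared, 6 were at least 4-fold higher, where 10.8% of all genes were, none was lower, and the median ratio was 3.95. Slfn4, a myeloid schlafen gene, was at 969 CPM in neutrophils, against 16.4 CPM in macrophages (59.0, 42.9 to 81.0), Ifitm1, an antiviral membrane protein, at 2345 CPM in neutrophils and 88.7 CPM in macrophages, and Rsad2, the antiviral enzyme viperin, at 1784 CPM in neutrophils and 72.9 CPM in macrophages. Isg15, a ubiquitin-like modifier, was at 1835 CPM in neutrophils and 208 CPM in macrophages. By tag, Isg15 was at 2092, 2200.4, 2139 and 1937 CPM in neutrophils of U2, U3, U4 and D0, and 177, 123, 232 and 254 CPM in macrophages, with no overlap. Rsad2 was at 1308, 1572, 2139 and 431 CPM in neutrophils of these tags and 52.1, 123, 213 and 86.8 CPM in macrophages, with D0 the lowest neutrophil sample but still above all macrophage samples. Ifit3 and Oasl1, further antiviral genes, were the other 2 that were higher, but not in every setting tried. Ifitm3, a relative of Ifitm1, was at 1835 CPM in neutrophils and 2168 CPM in macrophages. Cxcl10, an interferon-induced chemokine, rested on 5 barcodes, 1 of which held 70.5% of its UMIs.

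The 4-fold calls among survival genes and transcription factors did not hold in every setting tried. Mcl1, the short-lived anti-apoptotic protein that neutrophils depend on, was seen in 75 of 85 neutrophils and was at 3925 CPM in neutrophils, against 662 CPM in macrophages (5.93, 5.26 to 6.66), and the kinase Pim1 was at 1580.4 CPM in neutrophils and 229 CPM in macrophages. Keratin-low macrophages were at 1163 CPM of Mcl1 and 496 CPM of Pim1, and against them both ratios were below 4-fold. Of 10 survival and death genes, 7 were compared, 3 were higher (Bcl2l1 was the third), where 10.8% of all genes were, and none was lower. The ratio of Bcl2l1 lay between 2.57 and 4.83 over the settings tried, while Bcl2 had 0 UMIs in neutrophils. Of 12 transcription factors, 9 were compared and only Cebpb passed 4-fold, a share near that of all genes. It was at 6079 CPM in neutrophils, against 989 CPM in macrophages and 1510.4 CPM in keratin-low macrophages, and its ratio lay between 3.62 and 6.94 over the settings tried. Cebpa, Cebpe and Gfi1, which act in granulocyte precursors, had 0 UMIs in neutrophils. The immediate early genes Fos and Junb were at 2294 and 3250.0 CPM in neutrophils and 2135 and 1463 CPM in macrophages.

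Subunits of the NADPH oxidase, which makes the oxidative burst, did not move together. Of the 6, all compared, 3 were higher, where 10.8% of all genes were, Ncf4 and Rac2 among them, with Rac2 at 421 CPM in neutrophils, against 68.1 CPM in macrophages and 163 CPM in keratin-low macrophages, and Cyba was within 4-fold at 637 CPM in neutrophils and 680.0 CPM in macrophages. Against keratin-low macrophages, none of the 3 passed 4-fold. Cybb, the catalytic subunit gp91phox, was the 1 that was lower, where 13% of all genes were, at 38.2 CPM (3 UMIs) in neutrophils and 237 CPM in macrophages, a ratio of 0.161 (0.0332 to 0.473). The direction of the group depended on the reference: the 6 summed to 1912 CPM in neutrophils, 1201 CPM in macrophages and 2873 CPM in keratin-low macrophages. The median ratio was 3.04, and 1.15 to 3.74 over the settings tried.

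The median ratio was 1.11 over glycolytic genes and 0.327 over nuclear-coded genes of the respiratory chain, against 0.736 over all genes, while 4-fold calls were about as frequent in both groups as over all genes. Of 16 glycolytic genes 15 were compared, 2 were higher, where 10.8% of all genes were, and none lower. Slc2a3 was at 319 CPM in neutrophils and 0.369 CPM in macrophages, with 2 macrophage UMIs and an interval of 215 to 7523 for the ratio, and the lactate exporter Slc16a3 at 650.0 CPM in neutrophils and 71.4 CPM in macrophages. By tag, Slc2a3 was at 314, 503, 225 and 323 CPM in neutrophils of U2, U3, U4 and D0, with 0 UMIs in macrophages of all 4. The enzymes themselves were within 4-fold, as with Ldha, lactate dehydrogenase A, at 1185 CPM in neutrophils and 1128 CPM in macrophages, and Gapdh at 739 CPM in neutrophils and 1479 CPM in macrophages. Ratios below 1 were common among all genes, whose median was 0.736, and the share of all genes below 1 was not counted. All 14 nuclear-coded respiratory chain genes had ratios below 1, and 2 of them were past 4-fold, where 13% of all genes were. Neither call held in every setting tried, nor did that of Slc16a3. They summed to 2192 CPM in neutrophils, 5124 in macrophages, 4863 in keratin-low macrophages and 5187 in T cells. Of 13 genes of the mitochondrial genome 11 were compared and 8 were at least 4-fold lower, where 13% of all genes were, and all 11 had ratios below 1, with a median of 0.212 (0.151 to 0.523 over the settings tried). None of the 8 calls held in every setting, and mt-Co1 lay between 0.125 and 0.603. The 13 summed to 7762 CPM in neutrophils and 35244 CPM in macrophages, and T cells were at 33948 CPM and tumour cells at 38246 CPM. By tag the sum was 3819, 5029.6, 11879 and 4520.5 CPM in neutrophils of U2, U3, U4 and D0 and 42302, 34443, 34898 and 40586 CPM in macrophages, so that all 4 neutrophil samples lay under every macrophage sample. In U4 1 barcode of 2852 UMIs held 157 of the 211 mitochondrial UMIs, and without it U4 was at 3621 CPM. Over all neutrophils 4 barcodes held 52.7% of the 609 mitochondrial UMIs, and without them the sum was 4198 CPM; both omissions were chosen after seeing the data. Among cytosolic ribosomal protein genes, 72 of 101 were compared and 5 were 4-fold lower, a smaller share than the 13% of all genes, while 71 had ratios below 1. Fewer organelles and less RNA per organelle cannot be told apart here.

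No UMI of the inhibitor's target was seen. Acss2, Acss1, its mitochondrial relative, and Acly, which makes acetyl-CoA from citrate, had 0 UMIs each in neutrophils, which allows up to 38.2 CPM each. Acss2 was at 1.66 CPM in macrophages, 14.2 CPM in T cells and 1.87 CPM in tumour cells, all under that limit, so that no difference in Acss2 was detectable at this depth. Acly was at 46.7 CPM in macrophages, 74.3 CPM in keratin-low macrophages and 44.8 CPM in tumour cells, and its 0 UMIs in neutrophils allow up to 47.0 CPM at the upper end of a 95% interval.

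The 15 lowest ratios held genes of antigen presentation and macrophages, and 8 genes that were higher in tumour cells than in macrophages. All 5 genes of MHC class II presentation were at least 4-fold lower, where 13% of all genes were, with a median ratio of 0.0350 (0.0139 to 0.0999 over the settings tried), and 4 of the 5 calls, all but H2-DMa, held in every setting. They summed to 229 CPM (18 UMIs in 8 barcodes) in neutrophils, 5931 CPM in macrophages, 14102 CPM in keratin-low macrophages and 28.6 CPM in tumour cells. The invariant chain Cd74 was at 89.2 CPM in neutrophils, against 2606 CPM in macrophages, and H2-Aa, H2-Ab1 and H2-Eb1 had 2 to 4 UMIs each. Apoe, apolipoprotein E, was at 51.0 CPM (4 UMIs) in neutrophils and 3454 CPM in macrophages (0.0148, 0.00402 to 0.0378). The membrane protein gene Ms4a7 had 1 UMI in neutrophils and was at 219.9 CPM in macrophages. Lyz2, lysozyme, which neutrophils also make, was at 1313 CPM in neutrophils, against 3776 CPM in macrophages, and 1 barcode held 66.0% of its neutrophil UMIs. The 8 genes higher in tumour cells, Emp1, Igfbp7, Sox4, Tcim, Timp3, Ktn1, Gja1 and Nenf, had 1 to 3 UMIs in neutrophils. Timp3, a protease inhibitor, was at 38.2 CPM in neutrophils, 703 in macrophages, 69.4 in keratin-low macrophages and 889 in tumour cells. Against macrophages with fewer than 1500 genes, Tcim, Timp3 and Gja1 had ratios of 1.15, 1.01 and 1.91, and with no upper limit on genes Sox4 had a ratio of 1.10.

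Transcripts of other cell types were few in the neutrophils. The 10 macrophage markers outside the rule summed to 1529 CPM in neutrophils, mostly Lyz2, 8661 CPM in macrophages and 20993 CPM in keratin-low macrophages. In neutrophils Csf1r, Adgre1 and Trem2 were at 0. Of 6 monocyte markers 5 were compared, 2 were lower (Vcan and Fn1), where 13% of all genes were, and none higher at 4-fold. Of the 5, 2 had ratios above 1, the highest 3.25. Neither lower call held in every setting tried, with ratios of up to 0.716 for Vcan and 0.482 for Fn1. The 6 summed to 816 CPM in neutrophils, 3644 CPM in macrophages and 3764 CPM in tumour cells. Unthinned, Fn1 was seen in 99.9% and Vcan in 96.4% of tumour cells, so that the sum is not particular to monocytes. Among 8 mast cell markers Hdc held 120 of 121 UMIs, Cma1 held 1, and Kit, Gata2, Fcer1a, Ms4a2, Mcpt1 and Tpsb2 were at 0. Hdc was seen in 50 of 85 barcodes and was at 1883, 1635, 1407 and 1829.7 CPM in neutrophils of U2, U3, U4 and D0, against 1.30, 6.15, 0 and 6.43 CPM in macrophages, with no overlap. Basophil and eosinophil markers had 2 UMIs, both of Ccr3, B cell markers 0, NK cell markers 2 and dendritic cell markers 2. The 14 UMIs of T cell markers came from 3 barcodes. Endothelial markers had 3 UMIs and erythroid and platelet markers 3. The 7 tumour cell genes outside the rule summed to 369.6 CPM in neutrophils, 536 CPM in keratin-low macrophages, 330.1 CPM in T cells and 4125 CPM in tumour cells. The 5 fibroblast markers summed to 293 CPM in neutrophils, 340.4 CPM in keratin-low macrophages and 3027 CPM in tumour cells. Cell cycle genes had 3 UMIs in all, with Mki67 at 0. Of 12 actin cytoskeleton genes, 1 was higher (Gmfg, which trims branched actin), where 10.8% of all genes were, and none lower. The ratio of Gmfg lay between 1.86 and 5.38 over the settings tried, and the median ratio was 0.937.

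The neutrophils varied widely among themselves. The share of UMIs from the S100 pair ran from 0.530% to 36.4% with a median of 10.2%, and S100a8 and S100a9 followed each other (Spearman rho 0.886 of their UMI shares over the 85 barcodes, which share the depth and the rule). Retnlg followed the pair, with rho 0.599 to S100a9, and was seen in 39 barcodes. Il1b and Cxcl2 had rho 0.417 and were seen together in 67 barcodes, and G0s2 and Il1b had rho 0.396. Cxcl2 ran from 0% to 19.0% of a barcode's UMIs with a median of 2.20%, and Il1b from 0% to 9.30% with a median of 1.64%. The interferon genes Rsad2 and Slfn4 were seen together in 23 barcodes and neither was seen in 40 (rho 0.506). Hilpda went the other way from G0s2, with rho -0.379, and along with Fth1, with rho 0.444. All of these are descriptions over barcodes of 1 pool with few UMIs each.

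**Figure D3:**
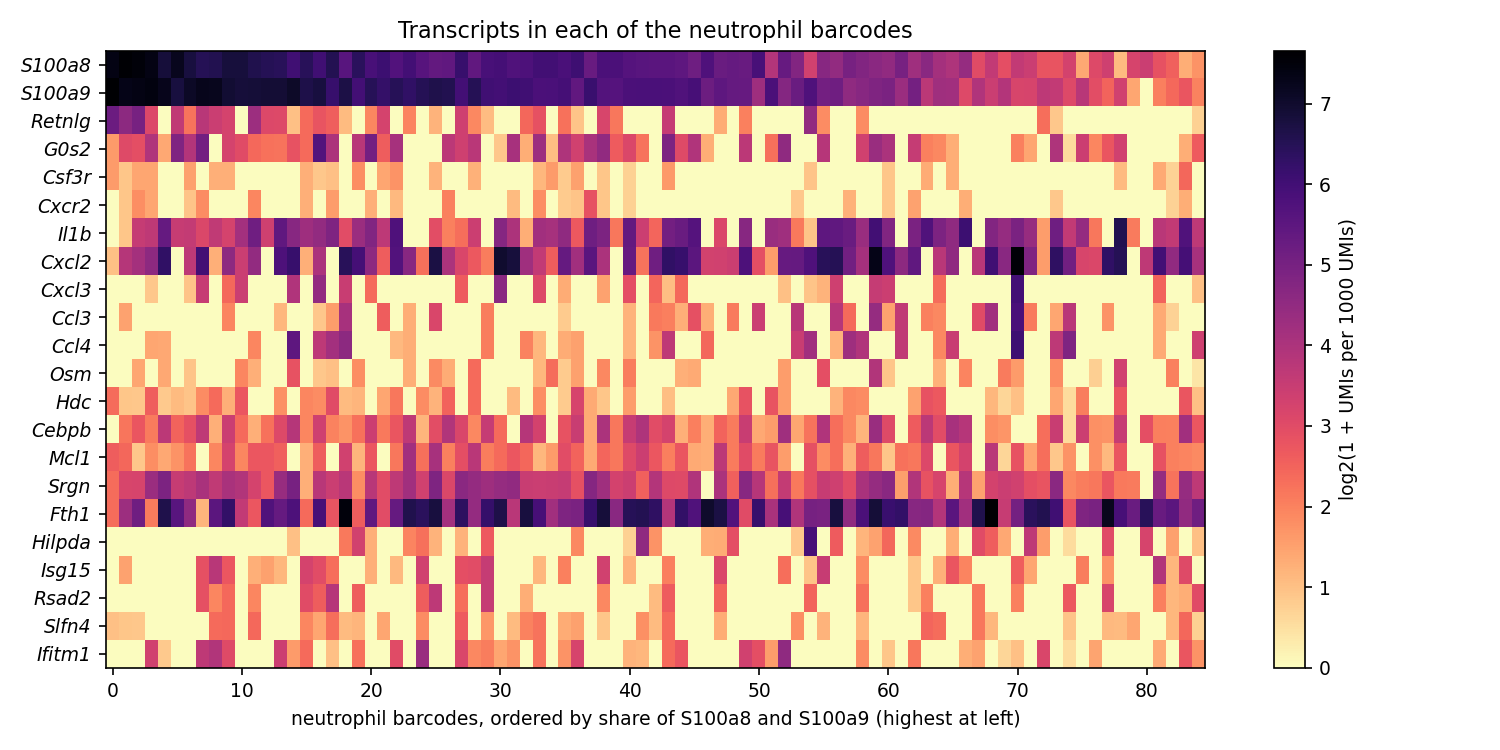
Transcripts of 22 genes (rows) in each of the 85 neutrophils (columns), ordered by the share of S100a8 and S100a9 with the highest at left; colour is log2(1 + UMIs per 1000 UMIs). S100a8, S100a9 and Retnlg fade from left to right, while Cxcl2, seen in 78 barcodes, and Il1b, seen in 74, stay high across most columns.

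Neutrophils were unevenly spread over the tagged samples, whose treatment is unknown. They were 0.936% (21 of 2244 barcodes; 95% interval 0.580% to 1.43%) of tag U2, 2.39% (19 of 796; 1.44% to 3.70%) of U3 and 4.22% (20 of 474; 2.60% to 6.44%) of U4. In D0 they were 2.56% (11 of 430; 1.28% to 4.53%), in D1 0.408% (8 of 1962; 0.176% to 0.802%) and in D4 0.298% (1 of 336; 0.00753% to 1.65%). A further 5 neutrophils were among 1016 barcodes with several tags, and 0 among 2489 with no tag, which allows a share of up to 0.121%. Tags differ in their number of tumour cells, so the share was also taken over barcodes with at most 1 keratin UMI. It was then 3.64% in U2, 2.99% in U3, 9.43% in U4, 4.37% in D0, 1.34% in D1 and 0.826% in D4. U4 was highest and D1 and D4 lowest on both denominators, and the interval of U4 over all barcodes did not overlap those of U2, D1 and D4. When every barcode was given the tag with the most UMIs, the share of U3 was 0.637%. The median barcode of a tag differed in depth as well, from 1272.5 UMIs in U3 to 22831 in D1, and its part in these shares was not tested.

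**Figure D4:**
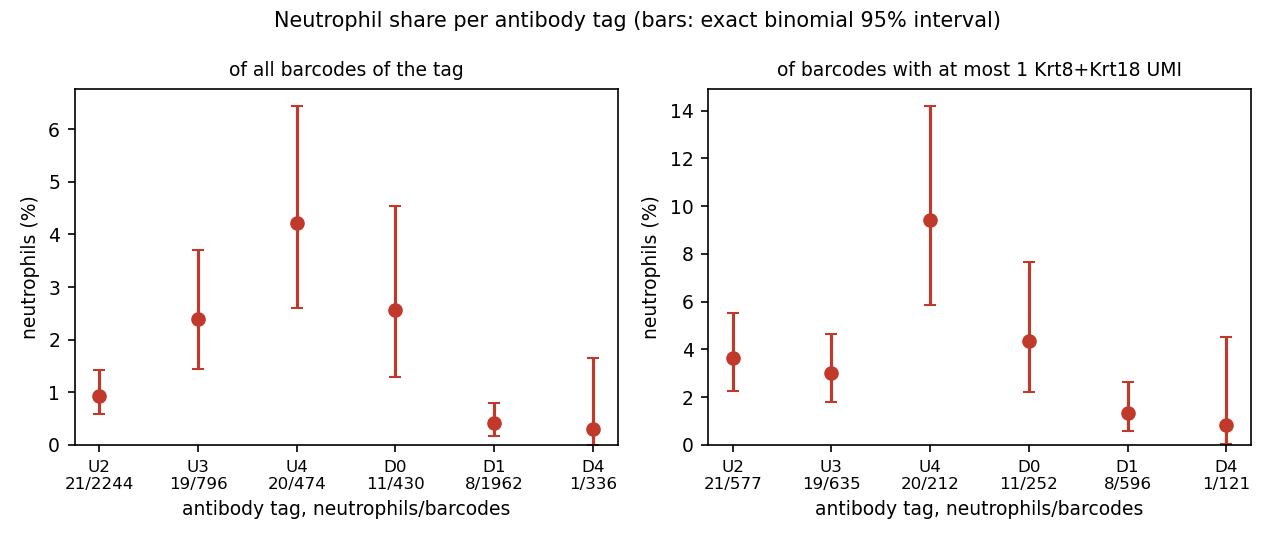
Neutrophils as a percentage of all barcodes of each antibody tag (left) and of barcodes with at most 1 Krt8 and Krt18 UMI (right), with exact binomial 95% intervals; the numbers under each tag are neutrophils and barcodes. U4 is highest in both panels, at 4.22% and 9.43%, and D4 rests on 1 neutrophil.

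Levels within neutrophils could be set side by side in the 4 tags with at least 10 of them. The marker G0s2 was at 7062, 10059, 8219 and 9472 CPM in neutrophils of U2, U3, U4 and D0, and at most 16.1 CPM in macrophages of the same tags. Retnlg varied more, at 5336, 2641, 3828 and 969 CPM in neutrophils of these tags and 0 UMIs in macrophages of each, with D0 lowest. Cxcl3 was at 314, 2641, 7206 and 4628 CPM in neutrophils, lowest in U2, and 9.11, 12.3, 12.9 and 6.43 CPM in macrophages. The S100 genes, which the rule used, were at 62562, 55199, 40083 and 32182 CPM (S100a8) and 62353, 72174, 53426 and 44559 CPM (S100a9) in neutrophils of the 4 tags. Ccl3 was at 2406, 1132, 4447 and 5489 CPM in neutrophils and 104, 172, 38.7 and 125 CPM in macrophages, and Ifitm1 at 1255, 3646, 2196 and 3767 CPM in neutrophils and 252, 36.9, 406 and 45 CPM in macrophages of these tags. The summed cytokine list was at 52937, 83679, 73242 and 114627 CPM in neutrophils and 5679, 3829.7, 5403 and 5850.4 CPM in macrophages, lowest in U2 and highest in D0 for neutrophils. The tumour cell genes outside the rule were at 575, 251, 394 and 108 CPM in neutrophils of the 4 tags, highest in U2, and their part in these differences was not tested. With 11 to 21 barcodes a tag, a tag's level can rest on a few of them.

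**Figure D5:**
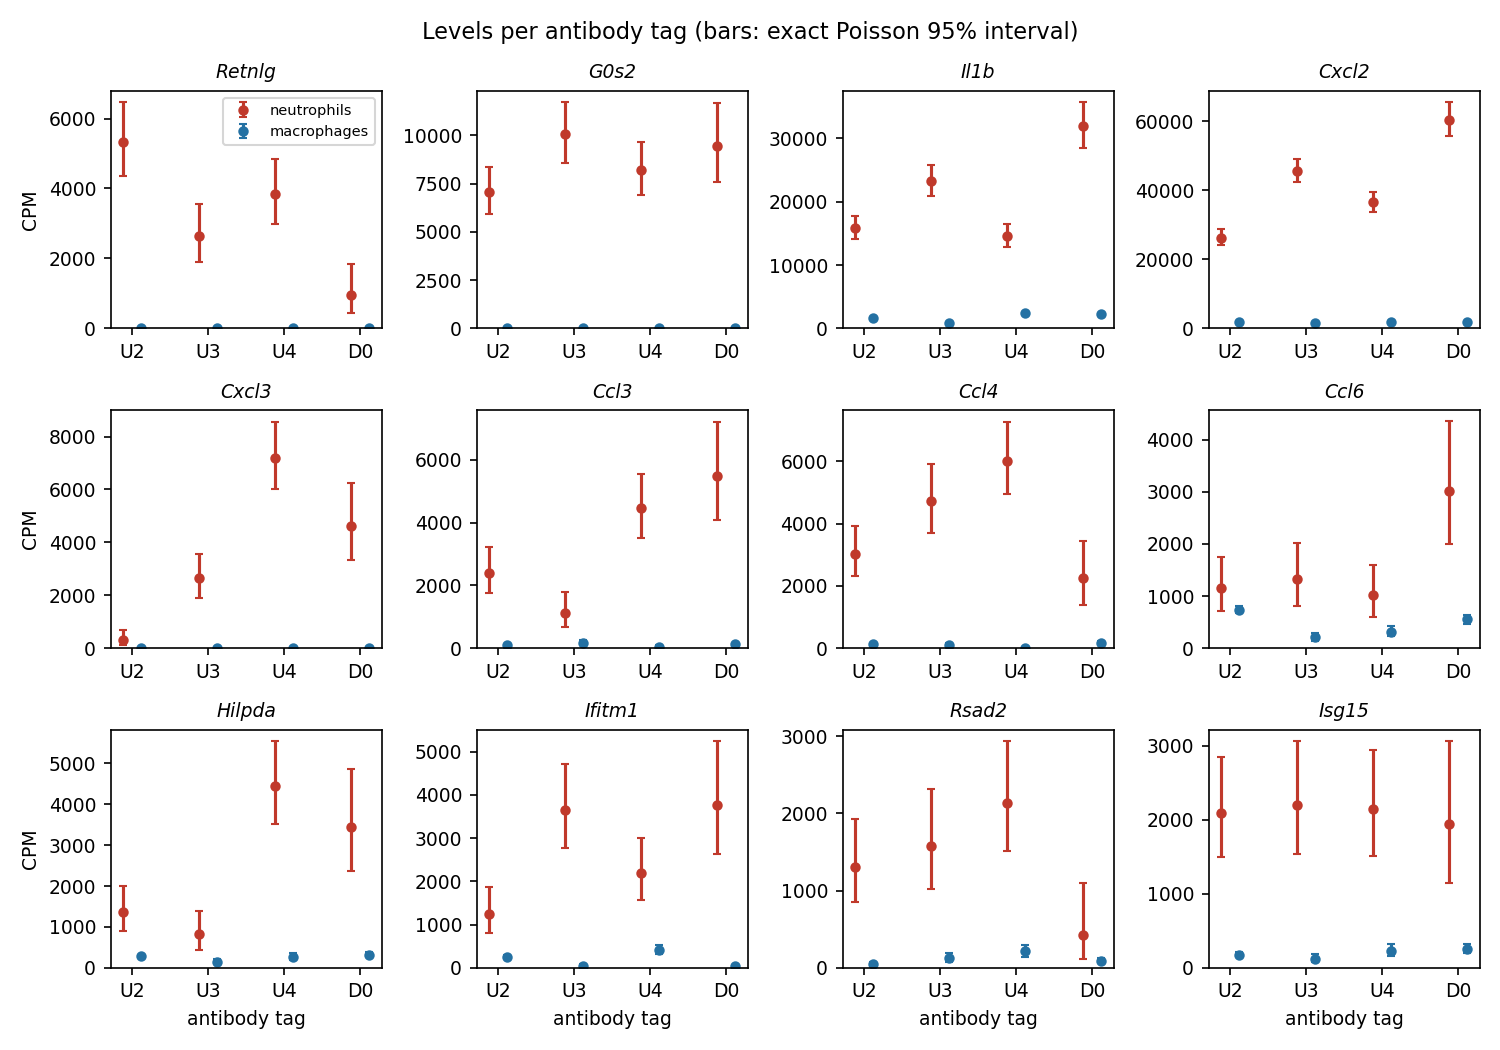
CPM of 12 genes in neutrophils (left point) and macrophages (right point) of the 4 antibody tags with at least 10 neutrophils, with exact Poisson 95% intervals. Retnlg is highest in U2 and lowest in D0, and Cxcl3 is lowest in U2 and highest in U4; Isg15 is nearly level over the neutrophils of the 4 tags.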

How the data were processed

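The submitters' processing notes name Cell Ranger and mm10, and the deposited matrix's header names software 3.1.0. The deposited values are raw UMI counts of 31053 genes and 6 antibody tags in 9747 barcodes, not normalized by the authors. Members, gene lists and other choices were made with earlier results of these data known. Tags were called with HTODemux (Seurat 5.3.0, R 4.3.3, positive quantile 0.99, seed 42). UMIs were summed per class in Python 3.11.15 and scaled to CPM. A gene was compared where the mean CPM of both classes was at least 50. A class at 0 was set at 3 UMIs. No doublet caller was run: 5 of the 85 members and 91 of the 517 macrophages carried several tags and were kept. Alternatives included thinning to 500 UMIs and TMM scaling (edgeR 4.0.16). The comparison of summed UMIs was tested on simulated sums with known changes, all well past the 4-fold limit, while barcode selection, tag calling and thinning were not. Error rates of the calls are not given here. Named genes are the 6 with the most neutrophil UMIs in each of 32 lists, the 15 highest and 15 lowest ratios resting on at least 20 UMIs in the higher class, the 6 markers, and Acss2, Acss1 and Acly; other members named were chosen after their values were seen. A few genes under this rule are not reported here. Promoters are from RefSeq (GRCm38.p6), with all 6 markers matched.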

Additional observations from a re-analysis of the deposited data

Results flagged for a closer look

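Of 32 sets of values over tags, 1 held a sample far from the others: Ccl6 in neutrophils of tag D0 was at 3014 CPM, against 1151, 1320.3 and 1013 CPM in neutrophils of U2, U3 and U4. The sets were over the 4 tags with at least 10 neutrophils, except that the neutrophil shares were over all 6. Macrophages of D0 were at 549.7 CPM of Ccl6 and those of U2, U3 and U4 at 738, 209 and 316 CPM. D0 had 11 neutrophils. Chance gives such a sample in about 1 of 20 sets.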

How the results depend on the processing

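No paired analysis was possible because the series is 1 pool and its labels carry no replicate numbers for the tags. The number of neutrophils was 64 to 84 when the barcodes of 1 tag at a time were left out, the genes at least 4-fold higher numbered 286 to 315 and those 4-fold lower 299 to 354. Without barcodes of several tags, 269 were higher and 321 lower. Counts moved by over 1.5 times in 4 settings. With no upper limit on genes, 151 were higher and 110 lower, a setting that adds the 3 barcodes of 9535 to 20794 UMIs. Against macrophages with fewer than 1500 genes, 184 were higher and 221 lower. With a mean of at least 20 CPM, 436 were higher and 545 lower, and with at least 100 CPM, 155 were lower. Higher calls were 45.4% of all calls, 57.9% with no gene limit and 55.6% at 100 CPM. Leaving mitochondrial genes and the S100 pair out of the total moved the median log2 ratio to -0.29, and TMM to -0.36. The share of U3 was 0.637% when each barcode took the tag with the most UMIs, and the keratin-low denominator gave 3.64%, 9.43% and 1.34% in U2, U4 and D1. Of named genes called, 46 of 67 higher and 12 of 45 lower passed 4-fold in all 25 settings. These counts include genes that the rule used, whose direction it set. S100a8 and S100a9 were among the 46, C1qa, C1qb and C1qc among the 12, and Krt8 and Krt18 among the 45. Ratios turned round for these genes: with no gene limit Sox4 was 1.10, and against macrophages with fewer than 1500 genes Top2a was 1.43, Sox9 4.09, Hmga2 1.72, Ereg 4.09, Dcn 2.68, Tcim 1.15, Timp3 1.01, Gja1 1.91 and Krt8 2.29. Against keratin-low macrophages Sox9 was 1.69, Hmga2 2.50, Ereg 1.98, Krt8 3.33 and Krt18 2.33. Both of these classes were limited to at most 1 keratin UMI per barcode, so their ratios of Krt8 and Krt18 were partly set by definition and are not results. Hmga2 had 0 neutrophil UMIs and its ratios stand at the 3-UMI limit. The cause of the changes in the other genes was not tested. With 78462 UMIs in all, 1 neutrophil UMI is worth 12.7 CPM, so genes under 38.2 CPM were below the limit of detection of 3 UMIs.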
